A study of Homo sapiens with 2 samples.

Results

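MNT, MXD4, MLX and MLXIPL encode 4 proteins of the MAX and MLX network, the group of transcription factors to which MYCN belongs. They were taken as every row of the deposited table whose platform gene symbol is one of these names, which gave 4 probe sets, 1 for each gene, out of 46255 rows and 14812 named genes. RNA had been collected from BE(2)C, an established human neuroblastoma cell line known to carry an amplified MYCN gene, 36 hours after a lipid transfection. One culture received an siRNA against MYCN (MYCN2, from Qiagen) and the other received non-targeting control siRNA (ONTARGETplus, from Dharmacon). Neither culture was left untransfected in these samples, and MYCN was targeted with 1 siRNA product. Each group has 1 array (Affymetrix Human Gene 2.0 ST, on which several short probes make up a probe set), so no difference below has a replicate or a test, and no p-value is given. The title of the control array calls it a reanalysis, with no further detail. MYCN is not analysed here, so the knockdown behind each difference below was not checked in these data.

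Proteins of this network carry a basic helix-loop-helix leucine zipper domain and bind DNA as dimers at E-boxes, of which CACGTG is the best known. MAX is the obligate partner of MYC and MYCN, which activate transcription. MAX also pairs with the MXD proteins, MNT and MGA, which repress transcription. MLX is a MAX-like protein that pairs with the glucose-sensing activators MLXIP (MondoA) and MLXIPL (ChREBP). MNT and MXD4 can dimerise with MAX and with MLX, so these genes connect the MAX side and the MLX side of the network.

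All 4 genes had a promoter window in RefSeq (GRCh38.p14), and the 250 bases before each gene start are shown because 3 of them hold the letters CACGTG, the palindromic E-box of this protein family. The windows lie at chr17:2401061-2401310 (minus strand) for MNT, chr4:2262110-2262359 (minus strand) for MXD4, chr17:42566850-42567099 (plus strand) for MLX and chr7:73624523-73624772 (minus strand) for MLXIPL. They are written 5′ to 3′ on the gene's strand, with CACGTG in capitals.
MNT: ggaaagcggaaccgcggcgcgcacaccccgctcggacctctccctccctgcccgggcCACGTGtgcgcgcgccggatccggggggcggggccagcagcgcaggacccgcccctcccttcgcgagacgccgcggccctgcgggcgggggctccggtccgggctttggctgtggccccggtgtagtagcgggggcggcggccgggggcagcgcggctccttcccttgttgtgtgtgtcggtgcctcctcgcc
MXD4: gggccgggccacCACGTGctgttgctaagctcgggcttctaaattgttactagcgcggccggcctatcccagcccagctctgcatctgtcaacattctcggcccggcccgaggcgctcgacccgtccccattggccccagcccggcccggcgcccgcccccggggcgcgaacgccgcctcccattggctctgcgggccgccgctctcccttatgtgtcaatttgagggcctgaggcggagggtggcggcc
MLX: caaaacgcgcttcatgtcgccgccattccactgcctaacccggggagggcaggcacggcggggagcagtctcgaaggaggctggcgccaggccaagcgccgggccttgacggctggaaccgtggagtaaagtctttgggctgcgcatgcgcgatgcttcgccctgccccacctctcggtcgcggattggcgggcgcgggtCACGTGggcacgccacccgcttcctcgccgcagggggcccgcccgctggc
MLXIPL: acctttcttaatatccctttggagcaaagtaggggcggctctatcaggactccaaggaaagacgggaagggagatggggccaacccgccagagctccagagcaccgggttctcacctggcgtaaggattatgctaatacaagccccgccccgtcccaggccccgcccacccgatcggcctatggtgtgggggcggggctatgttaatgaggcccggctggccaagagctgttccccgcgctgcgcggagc

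Counted from the annotated gene start, the CACGTG begins at position -193 in MNT, at position -238 in MXD4 and at position -50 in MLX. The motif is a palindrome, so both strands were searched at once. Of all 35116 RefSeq promoter windows of this length, 6.34% held it. Of the measured genes with such a window, 11.0% held it in any of their windows. A gene can have several windows, so the share of genes is not comparable with the share of windows. The MLXIPL window does not hold these letters. The G and C content of the 4 windows ran from 62.4% in MLXIPL to 78.0% in MNT, against a median of 58.0% over all windows. The MLXIPL window was above only 60.3% of all windows. Windows of the other measured network genes ran from 55.6% to 76.4%, both in MXI1. Of the 10 measured network genes with a promoter window, 3 held CACGTG, and these were MNT, MXD4 and MLX. A pair of CACGTG boxes 5 bases apart, the strict form of the carbohydrate response element that MLX dimers read, was in 1 of all windows searched and in none of the members. A match is a description of letters and does not show binding.

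**Figure D1:**
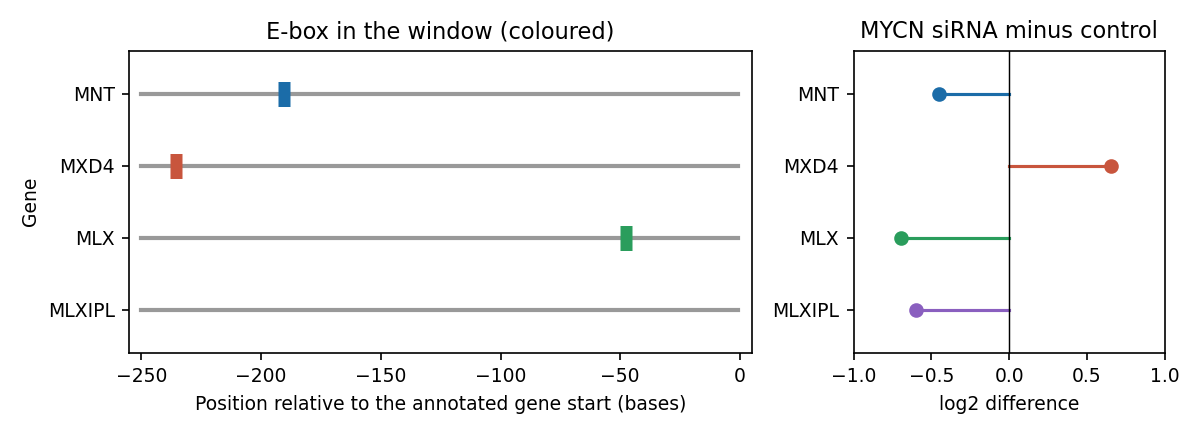
Left: position of CACGTG (coloured block) in the 250 bases before the annotated start of each gene. Right: log2 difference between the MYCN siRNA array and the control array. MNT and MLX hold the motif and were lower, MXD4 holds it and was higher, and MLXIPL lacks it and was lower.

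In the array of cells given MYCN siRNA, the signals of MLX, MLXIPL and MNT were lower than in the control array and that of MXD4 was higher. Values are RMA expression values on the log2 scale, and the difference is MYCN siRNA minus control siRNA. MLX, the common partner of the glucose-sensing factors, was 1.62-fold lower and the repressor MNT 1.37-fold lower. MLXIPL was at -0.60 on the log2 scale, but its signal lay near the array medians, so the size of its fold is uncertain. MXD4, a repressor associated with differentiating cells, was 1.57-fold higher. None of the 4 reached 2-fold. Genes whose signal reached the median of an array's rows in either array are called measured, and there were 10592. Among them 50.9% were higher and 48.0% lower by any amount. A difference of 2-fold or more upward was seen in 2.21% and downward in 1.16%, and one of 1.5-fold or more upward in 8.81% and downward in 5.79%. All 4 members passed this filter, MLXIPL only through the control array, where it was the higher of its values. A lower signal from a culture cannot tell less RNA per cell from fewer cells that express the gene.

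The only spread these arrays hold is that between probe sets of 1 gene. Pairs of probe sets from 374 measured protein-coding genes gave a log2 SD of 0.32 for the difference of 1 probe set, called the probe set SD below. Another 21 genes were left out because their 2 probe sets held identical values. The pairs were pooled over all levels, with some probe sets below the array medians, so this SD may differ at the level of each member. The probe set SD leaves out the spread between cultures and between hybridisations and so does not give the full error. For a contrast between 2 genes the probe set SD corresponds to an SD of 0.45.

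The log2 level of MLX was 10.7 under control siRNA and 10.0 under MYCN siRNA, a difference of -0.70 or 2.20 times the probe set SD. Both values lay far above the array medians of 4.60 and 4.55. Of all measured genes, 382 (3.61%) were at least as far below the control. Among the 500 measured genes nearest to MLX in mean level, 17 (3.4%) were. Its difference ran from -0.69 to -0.65 over the 4 other ways of processing that can change the value of a gene with 1 probe set, and it was past 1.5-fold in all 4.

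MLXIPL, the carbohydrate response factor ChREBP best known from liver and fat, had values close to the array medians. Its log2 level was 5.01 under control siRNA and 4.42 under MYCN siRNA, and the lower value was itself under its array's median. The difference was -0.60, or 1.88 times the probe set SD. Of all measured genes, 580 (5.48%) were at least as far below the control. Of the 500 nearest in mean level, 13 (2.6%) were at least as low, but genes this dim counted as measured only if 1 array was high enough. At this level the signal is not shown to be above background. Its difference was -0.37 when 16 was added to the linear values, and it was under 1.5-fold in each of the 4 alternatives that can change the value of a gene with 1 probe set.

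MNT, the most widely expressed of the MAX-binding repressors, had a log2 level of 7.55 under control siRNA and 7.10 under MYCN siRNA, a difference of -0.45. This was 1.43 times the probe set SD, and 10.0% of measured genes were at least as far below the control. Among the 500 genes nearest in mean level, 68 (13.6%) were at least as low. It did not pass 1.5-fold as deposited or in any of these 4 alternatives.

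MXD4 had a log2 level of 6.07 under control siRNA and 6.73 under MYCN siRNA, a difference of 0.66 or 2.07 times the probe set SD. Of all measured genes, 732 (6.91%) were at least as far above the control, and so were 48 (9.6%) of the 500 nearest in level. It passed 1.5-fold in 3 of the 4 alternatives that can change its value and was at 0.55 with the offset on linear values. MXD4 was the member that differed in direction. Its difference exceeded that of MNT by 1.11, that of MLXIPL by 1.25 and that of MLX by 1.35 on the log2 scale, each more than the SD of 0.45 that probe sets give for 2 genes. The 3 lower members differed from one another by 0.10 to 0.24, less than that SD.

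**Figure D2:**
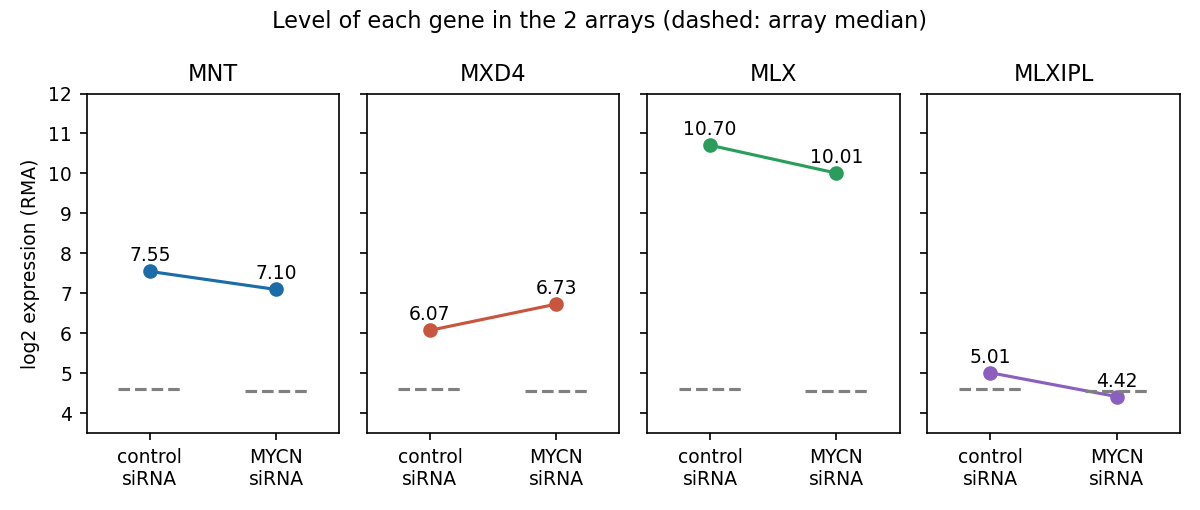
Log2 RMA value (y axis) of each gene's probe set in the control siRNA and MYCN siRNA arrays; the number beside each point is its value, and dashed lines mark the median of each array over all rows. MLX, MNT and MLXIPL were lower and MXD4 higher in the MYCN siRNA array, and MLXIPL lay near the array medians in both.

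**Figure D3:**
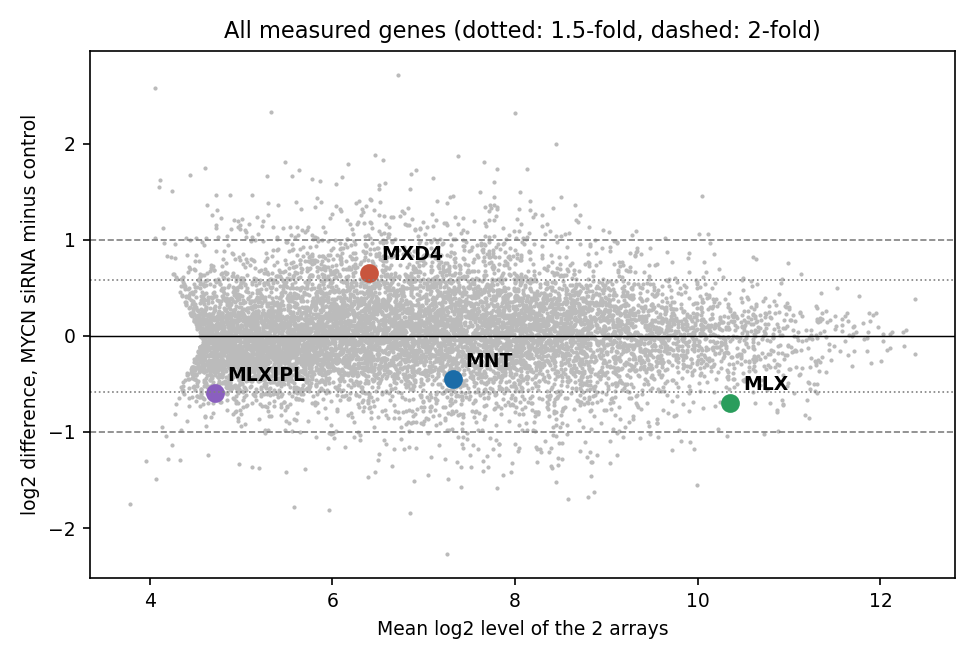
Log2 difference (y axis) against mean log2 level (x axis) for the 10592 measured genes (grey), with the 4 genes coloured; lines mark 1.5-fold and 2-fold. MLX lay at the lower edge of the genes of its level, at -0.70, and MNT inside their bulk, at -0.45.

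Of the 13 genes listed, 11 were measured, with 8 lower and 3 higher and a median of -0.27, against 48.0% lower and a median of 0.01 over all measured genes. The members make up 3 of the 8 that were lower. The other 7 measured genes had a median of -0.06, with 5 lower and 2 higher and none past 1.5-fold. MYC counted as measured only through the MYCN siRNA array and MLXIPL only through the control array. In each case that was the array with the higher value, so the direction of each gene is tied to its entry into the counts. With no filter on level the list still held 11 genes, with a median of -0.27. MYCL and MYCN are not analysed here.

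MAX, a partner of MNT and MXD4, was at 6.36 under control siRNA and 6.03 under MYCN siRNA (-0.32). MLXIP, the other glucose-sensing partner of MLX, went from 7.84 to 7.57 (-0.27). That difference lies within 1 probe set SD of 0.

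The MXD repressors went different ways. MXD1 was at 7.59 and 8.04 (0.45), which is the same direction as MXD4. MXI1 was at 6.32 and 5.88 (-0.44), with its 2 probe sets at -0.42 and -0.46. MXD3 had a mean difference of -0.05, but its 2 probe sets disagreed, the brighter at -0.35 and the dimmer at 0.24. MGA, a large MAX partner, was at 9.18 and 9.12 (-0.06). MYC was at 4.58 and 4.85 (0.27), close to the array medians, and counted as measured only through the MYCN siRNA array.

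**Figure D4:**
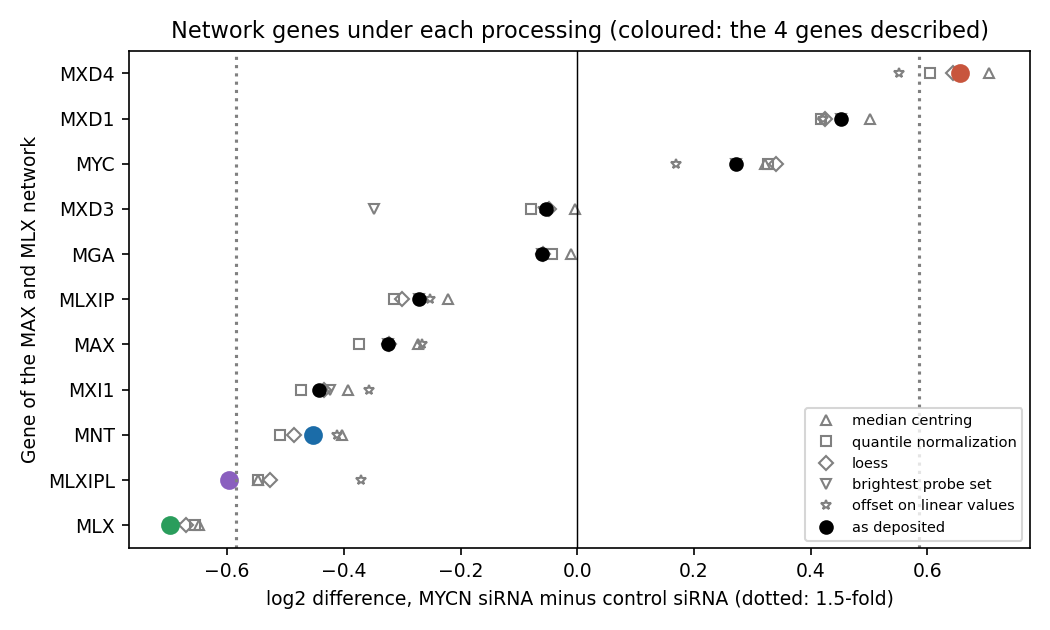
Log2 difference (x axis) of the 11 measured network genes (y axis) in the deposited values (filled points, the 4 genes coloured) and under 5 alternatives (open symbols); dotted lines mark 1.5-fold. MLX stayed past 1.5-fold throughout, and MLXIPL and MXD4 crossed the line under some alternatives.

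Genes described as responding to MLX dimers went both ways. Of 11 measured genes on this list, 6 were lower and 5 higher, with a median of -0.19, which is the value of THRSP. THRSP lay near the array medians (4.69 and 4.50) and counted as measured only through the control array, where it was higher. Over all measured genes 48.0% were lower. On this list 2 were at least 1.5-fold lower and 3 at least 1.5-fold higher, against 5.79% and 8.81% of all measured genes. ACACA, acetyl-CoA carboxylase of fatty acid synthesis, was lowest, from 9.38 to 8.61 (-0.77). Its mitochondria-associated relative ACACB was highest, from 5.33 to 6.15 (0.82). The following genes were picked after their values were seen. ACLY, which makes cytosolic acetyl-CoA, was at -0.59, FASN, fatty acid synthase, at -0.41, and the desaturase SCD at -0.38, with its brighter probe set at -0.16 and its dimmer one at -0.59. TXNIP, a thioredoxin-binding inhibitor of glucose uptake and a well-known MLXIP target, was at 0.73, with probe sets at 0.99 and 0.47, the second of them below the array medians. KLF10 was at 0.73 and ARRDC4, an arrestin related to TXNIP, at 0.20.

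E-box genes described as activated by MYC and repressed by MXD or MNT were lower in 7 of 8 measured members, with a median of -0.51. Over all measured genes 48.0% were lower. SRM, spermidine synthase, was lowest, at -0.86, and LDHA, lactate dehydrogenase A, highest at 0.33. This list overlaps genes already known to be lower in these arrays, so its count is a description only.

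Corepressors of the MXD proteins and MNT showed small differences. The 10 measured genes of the SIN3 complex, which MNT and MXD4 recruit, had a median of 0.10, against 0.01 over all measured genes. They ran from BRMS1 at -0.20 to SUDS3 at 0.27, and none passed 1.5-fold. Among all measured genes only 8.81% passed that line upward and 5.79% downward. A list of 10 genes with none past it is therefore not set apart from the other measured genes. SIN3A and SIN3B, the scaffolds themselves, named after their values were seen, were at 0.25 and 0.15. Of 10 MYC cofactors and turnover genes, 7 were lower (median -0.18), against 48.0% of all measured genes. The list ran from the acetyltransferase KAT2A at -0.88 to ACTL6A at 0.16. The 8 measured genes of the MGA complex had a median of -0.06, from L3MBTL2 at -0.56 to RING1 at 0.44, whose 6 probe sets hold identical values.

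Of 6 measured bHLH leucine zipper factors outside the network, 4 were higher and 2 lower (median 0.17). Over all measured genes 50.9% were higher and 48.0% lower. TFAP4, an E-box factor, was 2.19-fold lower, from 8.39 to 7.26. SREBF1, the sterol and fatty acid synthesis regulator, was highest, from 6.72 to 7.44 (0.72).

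**Figure D5:**
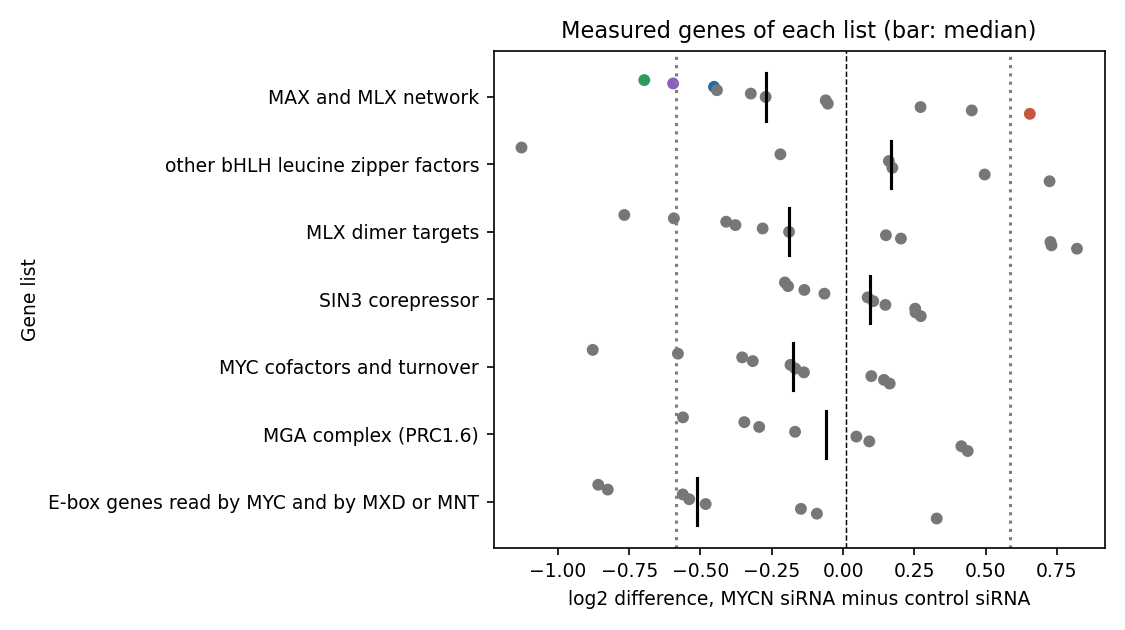
Log2 difference (x axis) of each measured gene in the 7 lists (y axis); black bars are list medians, the dashed line is the median of all measured genes, dotted lines mark 1.5-fold, and the 4 genes are coloured in the top list. The list medians ran from -0.51 for the E-box genes to 0.17 for the other bHLH leucine zipper factors.

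The E-box of the member promoters was set against all measured genes. Of 8152 measured genes with a RefSeq window, 897 (11.0%) held CACGTG in any of their windows, and the other motifs were counted likewise. Of those, 8.25% were at least 1.5-fold lower and 6.13% at least 1.5-fold higher, with a median of -0.02. Of the 7255 without it, 5.49% were at least 1.5-fold lower and 9.07% at least 1.5-fold higher, with a median of 0.03. MLX and MNT, with the motif, were lower, and MXD4, with the motif, was higher. For CAGCTG, an E-box read by other helix-loop-helix factors, 4.97% of the 1449 genes that hold it were at least 1.5-fold lower and 10.4% at least 1.5-fold higher. Among genes without CAGCTG the shares were 5.97% lower and 8.4% higher. For CACGCG, a variant E-box searched on both strands, the shares were 7.51% lower and 7.51% higher among the 1558 genes that hold it, against 5.38% and 9.04% among those that do not. For CATGTG, also searched on both strands, they were 6.09% and 8.41% with it and 5.76% and 8.78% without it. The shares of CACGCG thus lay on the same side as those of CACGTG.

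Differences of neighbouring genes were read in the RefSeq order. COASY and PSMC3IP, the genes on either side of MLX, were at 0.06 and 0.08. The neighbours of MLXIPL, TBL2 and VPS37D, were at -0.50 and -0.25. The nearest measured genes to MNT, each 2 genes away, were SGSM2 at 0.32 and METTL16 at -0.06. Those to MXD4 lay farther off, POLN 4 genes away at 0.11 and CFAP99 8 genes away at -0.22. POLN was near the array medians, at 4.74 under control siRNA and 4.85 under MYCN siRNA.

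The measured protein-coding genes whose pair of log2 values lay nearest to each member (Euclidean distance over the 2 arrays) describe only 2 points each, and a probe set's level depends on its probes. NOB1, a nuclease of ribosomal RNA maturation, and PRRC2C lay nearest to MLX, PGBD5 and the mitochondrial ribosomal protein gene MRPS25 to MNT, the kinase gene MAP2K4 and TM6SF2 to MXD4, and NNAT and ADAM19 to MLXIPL. The distances ran from 0.01 to 0.10.

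The cells bore neuroblastoma markers in both arrays. All 10 measured markers of the 12 listed, among them PHOX2A, HAND2, GATA3 and DBH, lay above the array medians, from 6.47 to 10.7 in the control array. Under MYCN siRNA 8 of the 10 were higher, against 50.9% of all measured genes, with a median difference of 0.16. DBH, the noradrenaline-synthesising enzyme, was highest, at 1.45. The 2 that were lower were HAND2 at -0.09 and ISL1 at -0.43, with ISL1 probe sets at -0.25 and -0.60. Of 28 markers of fibroblasts, Schwann cells, blood cells, endothelium and epithelium, 12 were measured. The log2 of their summed signal per list ran from 7.24 to 7.90 in the control array and from 6.98 to 9.05 in the MYCN siRNA array. Markers within a list went different ways. CD68, which is also a lysosomal protein gene, was at 1.74, but the blood cell marker CSF1R at -0.38. S100B was at 1.02, but the Schwann cell markers SOX10 and MBP at -0.28 and -0.23. LUM was at -1.17, but the fibroblast marker THY1 at 0.10. Of 4 measured endothelial and epithelial markers 3 were lower and 1 higher, with KDR lowest at -0.65. KDR and CSF1R counted as measured only through the control array. LYZ, EPCAM and DCN lay below the medians of both arrays. The part of these shifts in the values of the 4 genes was not tested.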

How the data were processed

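RNA of 2 BE(2)C cultures, 1 per group, had been labelled from 100 ng (WT PLUS kit), per the labels' protocols. The authors summarised each probe set with RMA (per the submitters' processing notes), and the deposited values are on the log2 scale. RMA corrects background, equalises arrays and summarises probes; its settings here are not given in the sources used. Values ran from 0.85 to 13.5 without centring, and the sorted values of the arrays lay within 0.128 of each other. A change in total RNA per cell therefore cannot be seen.

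Platform annotation named 15835 rows, all matched to RefSeq gene identifiers, and left 30420 unnamed here. Genes with several probe sets were given the mean of their log2 values (python 3.11.15, pandas 2.3.3, loess by statsmodels 0.14.6). Named genes were the members, the measured network genes, the extremes of each other list and any gene there past 2-fold, 2 nearest genes per member, and chromosomal neighbours. Some further list genes and cell type markers were named after their values were seen. The members and lists were chosen with earlier results of these data known. The scripts were tested on simulated data. The number of arrays limits the precision. MYCN is not reported here.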

Additional observations from a re-analysis of the deposited data

How the results depend on the processing

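The directions of MNT, MXD4, MLX and MLXIPL were the same under the 4 alternatives that can change their values. These were median centring, quantile normalization, loess (span 0.3), and an offset of 16. The offset keeps the order of 2 values and so cannot turn a direction. The sorted values of the arrays lay within 0.128 of each other, so median centring and quantile normalization could move these differences only a little. The kept directions are therefore a weak check. The brightest probe set cannot differ for genes with 1 probe set. The ranges were -0.51 to -0.40 for MNT, 0.55 to 0.71 for MXD4, -0.69 to -0.65 for MLX and -0.55 to -0.37 for MLXIPL. Medians of the 7 lists kept their sign, also with the brightest probe set, no filter or one at the 70th percentile. Genes at least 2-fold higher went from 234 to 124 with the offset, and at 1.5-fold the counts were 933 higher and 613 lower. Under median centring 6042 measured genes were higher and 4549 lower, against 5388 and 5081 as deposited. No paired analysis was possible because each group has 1 array. The spread between cultures was not measured, and MLXIPL is limited by its signal near the array medians.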

Other observations

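At the precision of the deposited values, 123 measured genes had a difference of exactly 0. ERBB3, for example, was at 5.24 under both siRNAs. None of MNT, MXD4, MLX and MLXIPL was among them, and median centring moves all such genes to the same side at once.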
